A study of Mus musculus with 8 samples.

Results

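The 10 genes described here encode the H3K4 methyltransferase complexes. They were taken from the deposited table by gene symbol, from a list of 6 catalytic subunits (Kmt2a, which encodes MLL1, Kmt2b, Kmt2c, Kmt2d, Setd1a and Setd1b) and 4 core subunits that every complex shares (Wdr5, Ash2l, Rbbp5 and Dpy30). All 10 were found among the 23084 genes of the table. RNA was sequenced from CD11b+Ly6C+ (monocytic) and CD11b+Ly6G+ (granulocytic) myeloid cells sorted from the spleens of C57BL/6 mice aged 6 to 8 weeks, which were either WT or Lmna KO. There were 4 groups of 2 samples, namely WT CD11b+Ly6C+, Lmna KO CD11b+Ly6C+, WT CD11b+Ly6G+ and Lmna KO CD11b+Ly6G+. In the Lmna KO mice (LmnaMyeKO) a LysM-Cre allele, active in cells of the myeloid lineage , deleted floxed Lmna. The methods name purchased female C57Bl/6 mice of this age, but neither the labels nor the methods say whether these were the wt mice sequenced or whether animals were pooled. The methods for RNA-sequencing also do not say whether the mice bore tumors. The subset of a sample was taken from its title, because the cell-marker label of all 8 samples names CD11b+Ly6C+, the 4 titled CD11b+Ly6G+ included.

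Each complex joins 1 catalytic subunit, which carries the SET domain, to the core of WDR5, ASH2L, RBBP5 and DPY30, without which the SET domain is a weak enzyme. The complexes place methyl groups on lysine 4 of histone H3. SETD1A and SETD1B make most H3K4me3 at active promoters, MLL1 and its relative encoded by Kmt2b act at selected promoters such as those of Hox genes, and the enzymes encoded by Kmt2c and Kmt2d place H3K4me1 at enhancers. In blood formation Kmt2a is known for maintaining stem cells and for its translocations in leukemia. The study treated sorted cells with MM-102, a compound that blocks the contact of MLL1 with WDR5, which is why the transcripts of both partners are of interest here.

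The value analysed was the authors' mean normalized signal of each gene, which is the average over samples of its read count divided by the sample's size factor. It was 1 value per gene, with no value per sample and so no SD, n or test. The table's columns for the difference between genotypes are the authors' own comparison and were not used, so none of the levels below says how a gene differed between wt and lamin A/C-deficient cells. The average covered 8 libraries, the number of samples in the series. This was read from the lowest averages, which were sums of whole reads from 8 libraries with different size factors. All 855 genes with a mean signal under 0.321 matched such a sum within 2e-06, where sums lie that close to 0.129% of the values in this range. The 44 values that occurred at least 3 times were used to solve the size factors, so genes with those values matched by construction. The remaining genes were not counted apart. The upper limit of this range was chosen after the values were seen. Of 10 other limits, 8 gave the same size factors, the lowest limit gave 7 libraries with other factors, and a limit of 2.0 times the lowest mean gave no solution. The levels are therefore averages over both subsets and both genotypes, and the share of each group in them cannot be told apart. The size factors ran from 0.796 to 1.05 in 7 libraries and reached 1.91 in the remaining one, which stood apart. The methods give only a range of reads per sample, so the total of each single library is unknown. Which sample a size factor belongs to is unknown as well.

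Marker transcripts of both sorted subsets were measured in the averages, and so were genes listed as markers of other cell types. Whether the sorted cells themselves express some of these genes was not tested. The granulocyte list had a median level of 78217 per kb of exon and the monocyte list one of 2208. In mean signal, the granulocyte markers ran from 7853 for Ly6g to 725556 for S100a9. Itgam, which encodes the CD11b of both sorted subsets, was at 54060, and the other 5 genes of the monocyte list ran from 2504 (Ccr2) to 22159 (Csf1r), with Ly6c2 at 14413. The 4 B-cell markers lay between 4141 and 5923, the 5 red pulp macrophage markers between 6749 and 31789, and the 4 T-cell markers between 288 and 759. The erythroid markers Hbb-bs and Hba-a1 stood at 8580 and 4661. None of the markers was at 0. The H3K4 methyltransferase genes are active in many cell types, and the source of these markers and their part in the levels of the 10 genes were not tested. Because the values are of bulk RNA, fewer cells of a type and less RNA per cell cannot be told apart. Lmna itself had a mean signal of 79.5, and its loss in the Lmna KO samples could not be checked without values per sample.

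The promoters of the members are shown first, because some of the complexes are drawn to CpG-rich promoters. MLL1 and the protein encoded by Kmt2b carry a CXXC domain that binds unmethylated CpG, and CXXC1 brings SETD1A and SETD1B to the same kind of DNA. Whether the complexes act at the promoters of their own genes was not tested. RefSeq promoter windows (GRCm38.p6, the assembly of mm10) were found for 7 of the 10 members, Kmt2a, Kmt2c, Kmt2d, Setd1a, Wdr5, Rbbp5 and Dpy30. Kmt2b, Setd1b and Ash2l were not matched. The 250 bases before the start are given for MLL1 and WDR5, the pair that MM-102 separates, for Kmt2c, which had the most CpGs, for 2 starts of Dpy30, which differ widely, and for Gfi1, one of the factors that the study ties to H3K4me3. Cebpe was not matched. Capitals mark CpG dinucleotides, and each sequence reads 5′ to 3′ on the strand of its gene, which is plus for Wdr5 and minus for the others.
Kmt2a, chr9:44881290-44881539: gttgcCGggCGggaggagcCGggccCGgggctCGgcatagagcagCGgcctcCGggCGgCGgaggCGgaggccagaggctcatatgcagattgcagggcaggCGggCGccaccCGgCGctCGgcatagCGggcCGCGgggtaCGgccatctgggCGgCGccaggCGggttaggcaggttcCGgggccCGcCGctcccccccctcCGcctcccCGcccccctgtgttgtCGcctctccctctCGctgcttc
Kmt2c, chr5:25498784-25499033: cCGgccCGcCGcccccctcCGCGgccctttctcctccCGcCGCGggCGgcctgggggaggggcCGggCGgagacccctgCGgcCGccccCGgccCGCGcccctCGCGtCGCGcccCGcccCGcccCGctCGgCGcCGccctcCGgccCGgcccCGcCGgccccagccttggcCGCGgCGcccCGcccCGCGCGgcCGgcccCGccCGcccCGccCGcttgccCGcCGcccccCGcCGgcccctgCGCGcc
Wdr5, chr2:27514897-27515146: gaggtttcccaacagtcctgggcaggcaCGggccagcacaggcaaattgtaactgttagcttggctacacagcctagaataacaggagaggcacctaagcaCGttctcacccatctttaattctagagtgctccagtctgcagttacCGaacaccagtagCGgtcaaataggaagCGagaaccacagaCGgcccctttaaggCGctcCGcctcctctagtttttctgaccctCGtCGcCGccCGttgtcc
Dpy30 upstream start, chr17:74323945-74324194: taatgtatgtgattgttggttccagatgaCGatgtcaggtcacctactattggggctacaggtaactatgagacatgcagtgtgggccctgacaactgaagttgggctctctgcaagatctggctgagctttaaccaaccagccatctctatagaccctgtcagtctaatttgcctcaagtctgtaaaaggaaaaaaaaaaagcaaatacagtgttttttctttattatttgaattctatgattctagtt
Dpy30 downstream start, chr17:74316212-74316461: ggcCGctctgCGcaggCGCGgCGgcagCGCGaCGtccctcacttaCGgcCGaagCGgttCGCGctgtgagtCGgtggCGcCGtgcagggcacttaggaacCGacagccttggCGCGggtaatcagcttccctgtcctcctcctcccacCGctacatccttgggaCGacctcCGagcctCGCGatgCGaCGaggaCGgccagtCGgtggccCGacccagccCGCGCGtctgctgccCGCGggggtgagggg
Gfi1, chr5:107725806-107726055: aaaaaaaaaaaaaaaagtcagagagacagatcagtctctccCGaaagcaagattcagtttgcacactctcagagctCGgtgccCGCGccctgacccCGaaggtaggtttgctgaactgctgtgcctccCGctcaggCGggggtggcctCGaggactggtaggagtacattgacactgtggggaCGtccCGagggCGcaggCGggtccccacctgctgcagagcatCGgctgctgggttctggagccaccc

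CpG dinucleotides filled the promoter of Kmt2c and were nearly absent before the upstream start of Dpy30. In windows of 300 bases, from 250 before to 50 after the start, Kmt2c had 56 CpGs, Kmt2a 36, Setd1a 35, Kmt2d 27, Wdr5 22 and Rbbp5 16. The RefSeq start of Setd1a lay 719 bases inside the GENCODE gene, and those of the other matched members lay within 10 bases of the 5′ end, for Dpy30 at its upstream start. Over all 32851 promoter windows in the reference the median was 7, and 6 of the 7 matched members lay above it. These windows were not limited to expressed genes, so whether the members differ from other expressed genes in CpG count was not tested. Kmt2c exceeded 99.8% of all windows and Kmt2a 93.8%. The upstream start of Dpy30, at the 5′ end of the annotated gene, had 1 CpG. The other 3 RefSeq starts of Dpy30 lay downstream, within its annotated span, and had 39, 34 and 30. Of the 2 windows of Gfi1, the one shown had 16 CpGs and the other 10. Neither overlaps the interval that the study lists for Gfi1 from its H3K4me3 comparison of granulocytes and monocytes.

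**Figure D1:**
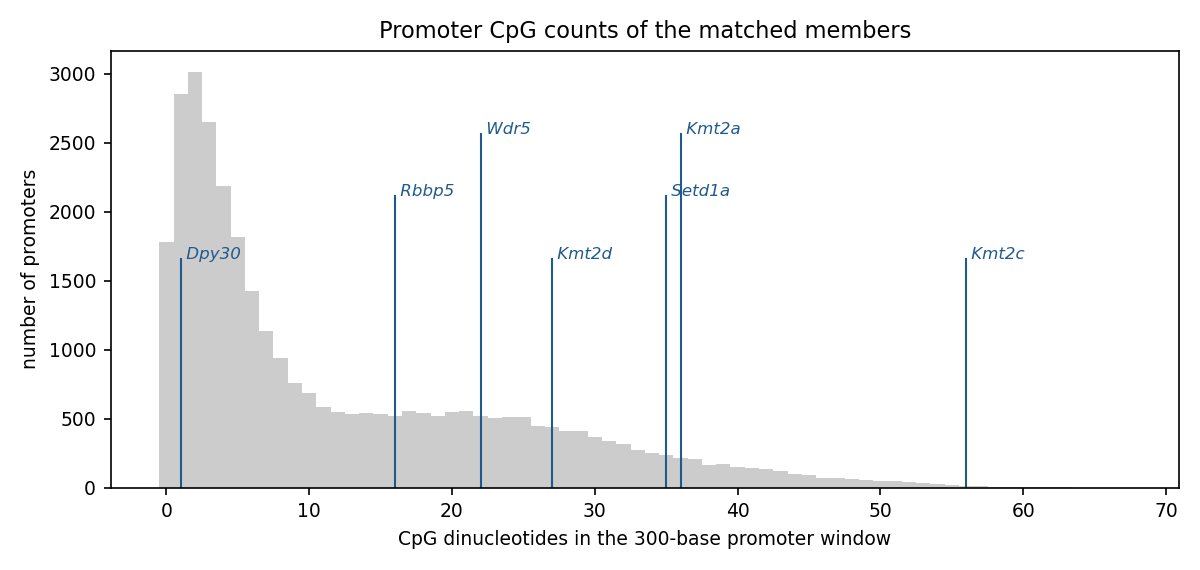
Number of promoter windows (vertical axis) by the number of CpG dinucleotides in 300 bases (horizontal axis), over the 32851 RefSeq windows in grey, with a line at each matched member. For Dpy30 the upstream start is drawn. Kmt2c, with 56, stands near the right end, and 6 of the 7 members lie above the median of 7.

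A few short promoter elements were searched on both strands of the same windows, and none of them contains another. The GC box GGGCGG occurred in 4 of the 7 member windows (Kmt2a, Kmt2c, Kmt2d and Wdr5), against 35.7% of all windows. CCAAT occurred in that of Dpy30 alone, against 37.4% of all windows. TATAAA, the ETS motif CCGGAAG and the NRF1 motif were in none of the 7, against 13.6%, 8.86% and 0.971% of all windows. For Dpy30 the upstream start was counted, and 1 of its 3 other windows held the GC box while none of those held CCAAT. With so few members these counts are a description.

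By their medians the catalytic subunits had more signal than the core subunits (4385 against 737) and more exon sequence (14.4 kb against 3.76 kb), although Setd1a had less signal than Wdr5 and less exon sequence than Ash2l. Kmt2d, the main H3K4me1 enzyme at enhancers, had the highest mean signal of the 10, at 10065. Kmt2c followed at 6229, Kmt2a at 4965, Setd1b at 3806, Kmt2b at 3611 and Setd1a at 1167. Among the core subunits the mean signal was 1818 for Wdr5, 1040 for Rbbp5, 434 for Ash2l and 166 for Dpy30. All 10 passed the minimum mean signal of 10 that was set for an expressed gene, and their sum was 0.132% of the signal of the whole table. A long transcript gives more reads at the same abundance, so the order of mean signal above is not an order of abundance. For abundance the members were ordered per kb.

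Positions and lengths came from GENCODE M21 on mm10. The exons of Kmt2c (chr5:25271798-25498783, minus strand) add up to 20.3 kb, those of Kmt2d (chr15:98831669-98871204, minus) to 19.9 kb and those of Kmt2a (chr9:44803355-44881296, minus) to 16.7 kb. Setd1b (chr5:123142193-123168629, plus) has 12.1 kb of exon, Kmt2b (chr7:30568858-30588726, minus) 9.60 kb and Setd1a (chr7:127776670-127800122, plus) 6.80 kb. The core genes have 3.60 kb for Wdr5 (chr2:27515157-27536535, plus), 3.93 kb for Rbbp5 (chr1:132477365-132505659, plus), 8.97 kb for Ash2l (chr8:25815996-25847694, minus) and 1.15 kb for Dpy30 (chr17:74299474-74323944, minus). The longest annotated transcripts of Kmt2c and Kmt2d have 59 and 55 exons.

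Per kb of exon, Wdr5 and Kmt2d had the highest levels of the 10, and nearly the same one. The level was 506 per kb for Wdr5, whose protein is a WD40-repeat scaffold that binds the catalytic subunit, and 505 for Kmt2d. Kmt2b followed at 376 per kb, then Setd1b at 315, Kmt2c at 307, Kmt2a at 298, Rbbp5 at 265, Setd1a at 172, Dpy30 at 145 and Ash2l at 48.4. With the coding sequence as the length, Wdr5 stood 3.02 times above Kmt2d, and with the longest transcript 1.24 times. Wdr5 had the highest level of the 10 under all 3 lengths, although per kb of exon its lead over Kmt2d was under 1 per kb. No error can be given for a level, so the range over the 3 lengths is the only spread shown. Of the 45 pairs of members, 33 had the same order under all 3 lengths and 12 did not.

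**Figure D2:**
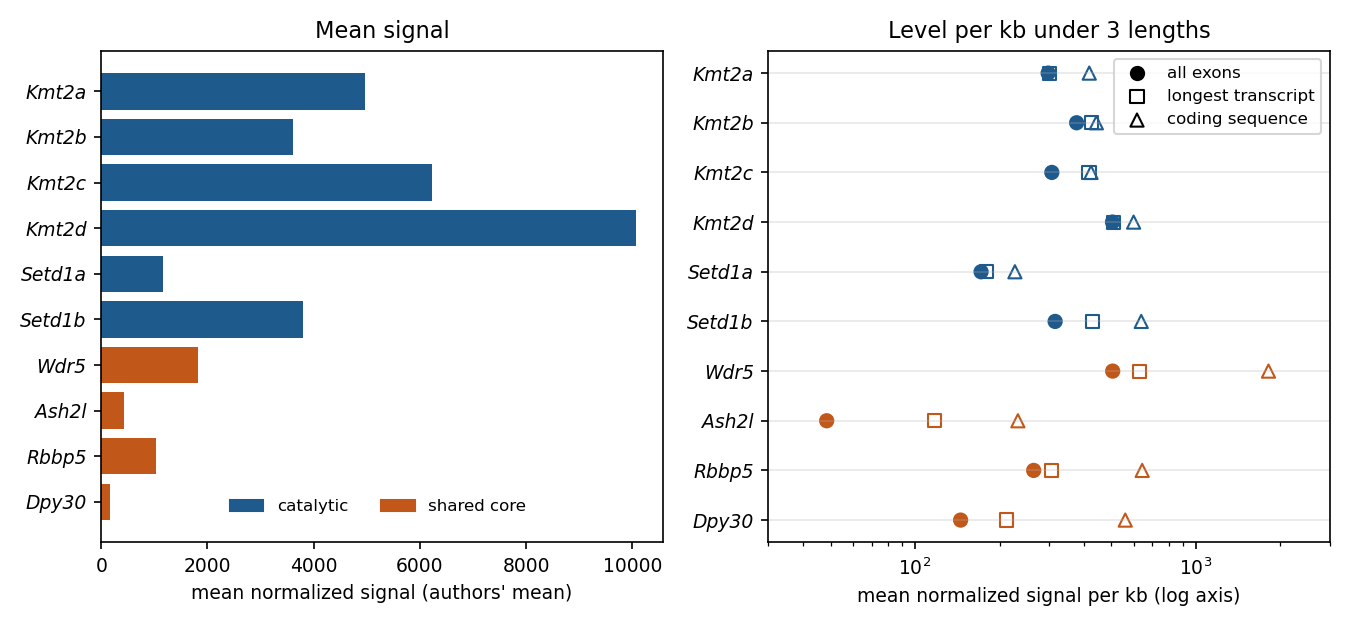
Left, the authors' mean normalized signal of each member. Right, the same signal per kb on a log axis, with the length taken as all annotated exons (filled circles), the longest transcript (squares) or the coding sequence (triangles), and with catalytic subunits in blue and core subunits in orange. Kmt2d leads on the left with 10065, while Wdr5 leads on the right under each length.

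Among the 6 catalytic subunits, the transcript of MLL1 was the second lowest and that of SETD1A the lowest, under each of the 3 lengths. Kmt2a was 0.970 times Kmt2c per kb of exon, 0.724 times per kb of the longest transcript and 0.986 times per kb of coding sequence. The 3 lengths divide the same average, which has no error, so the order of Kmt2a and Kmt2c is not separated from noise. Kmt2a had a level of 298 per kb of exon and 417 per kb of coding sequence. Setd1a had 172 and 227. Kmt2a stood 1.73 times above Setd1a per kb of exon, 1.67 times per kb of the longest transcript and 1.84 times per kb of coding sequence. Kmt2d was at 505 per kb of exon and 600 per kb of coding sequence. Kmt2c, its partner at enhancers, was at 307 and 423, and ranked 4 of the 6 under each length. Setd1b ranked 3 of the 6 per kb of exon at 315, 2 per kb of the longest transcript and 1 per kb of coding sequence at 639, so the leading catalytic transcript depended on the length used. Kmt2b was at 376 per kb of exon and 442 per kb of coding sequence. As a share of the 6 levels per kb of exon, Kmt2d made up 25.6%, Kmt2b 19.1%, Setd1b 16.0%, Kmt2c 15.6%, Kmt2a 15.1% and Setd1a 8.71%.

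The annotation bears on these values. In GENCODE M21 the gene Gm49388, on the same strand, shares 51.9% of the exon length of Setd1a. That gene has no entry of its own in the table, which was made with the older release M12, and whether its reads were counted for Setd1a was not tested. Small antisense or unclassified genes overlap 2.27% of the exons of Kmt2a, 1.35% of those of Kmt2c and 0.427% of those of Setd1a, and strand use in the counting is not given in the sources used here.

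The 4 core subunits spread more widely than the catalytic ones. They assemble together, and their order was the same under the 3 lengths, with Wdr5 first, then Rbbp5, Dpy30 and Ash2l. Wdr5 alone made up 52.5% of their summed level per kb of exon, 49.8% per kb of the longest transcript and 55.8% per kb of coding sequence. Rbbp5, which with ASH2L contacts the SET domain, was at 265 per kb of exon and 644 per kb of coding sequence. Dpy30, a small protein that joins the complex through ASH2L, was at 145 and 561. Ash2l was at 48.4 per kb of exon and 232 per kb of coding sequence, a range of 4.80 times that was the widest of the 10. GENCODE M21 lists 11 transcripts for Ash2l, and the longest of them is 1 unspliced exon of 3702 bases, against a coding sequence of 1869.

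Whether the catalytic or the core transcripts were in excess turned on the length. Summed per kb of exon, the 6 catalytic subunits reached 1973 and the 4 core subunits 964, a ratio of 2.05. With the longest transcript the ratio was 1.79. Per kb of coding sequence the sums were 2749 and 3252, and the ratio fell below 1, to 0.845.

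Per kb of exon, the catalytic subunits were all above the median of the expressed genes. Among the 14312 genes with a mean signal of at least 10, the percentile of a level is the share of these genes with a lower level per kb of exon. Kmt2d was at 84.4, Kmt2b at 79.7, Setd1b at 76.4, Kmt2c at 75.9, Kmt2a at 75.4 and Setd1a at 63.6. In the core, Wdr5 was at 84.5, Rbbp5 at 73.1, Dpy30 at 60.1 and Ash2l at 36.5, the only member below the median of these genes. With no minimum mean signal Ash2l was at 60.6, above the median of all genes. Both percentiles of Ash2l were taken with the exon length, which gave 48.4 per kb. Its level was 117 per kb of the longest transcript and 232 per kb of coding sequence. Percentiles under those lengths were not computed for any gene, so the place of each member under them is unknown. The median level of the expressed genes was 93.0 per kb, and that of the 10 members was 302. Among protein-coding genes alone, whose median level was 114 per kb, the percentile was 72.9 for Kmt2a and 31.8 for Ash2l.

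**Figure D3:**
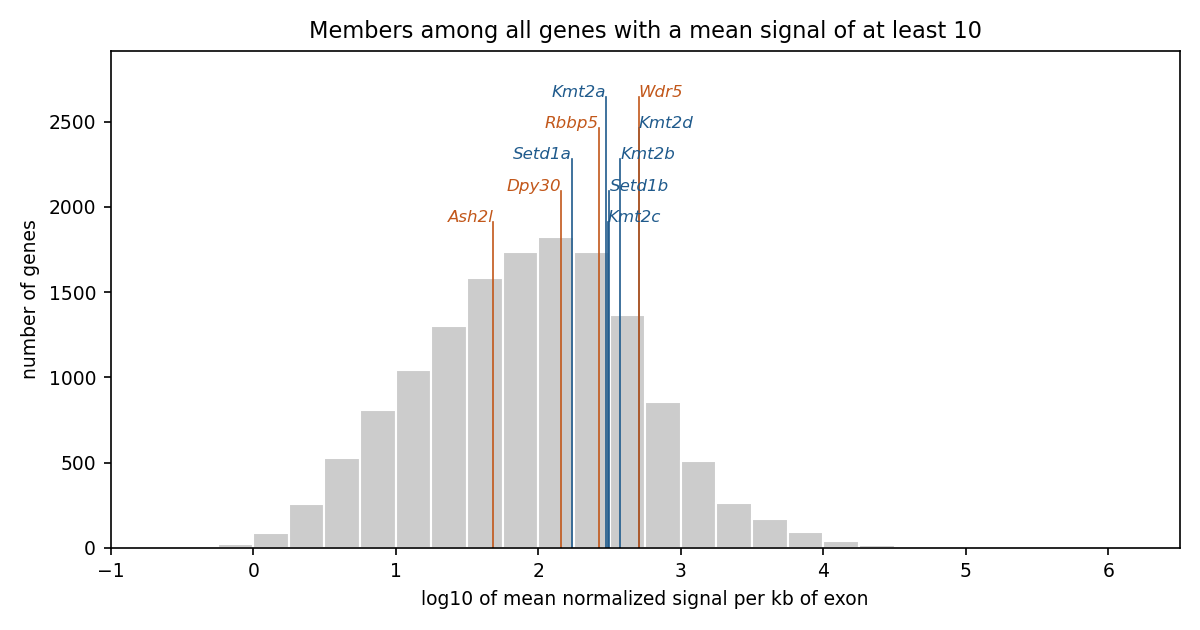
Number of genes (vertical axis) by log10 of the mean normalized signal per kb of exon (horizontal axis), for genes with a mean signal of at least 10, with a line at each member (catalytic in blue, core in orange). Of the 10 members, 9 lie above the median level of 93.0 per kb, and Ash2l, at 48.4, lies below it.

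The subunits that set 1 complex apart from another ran lower at the bottom end than the members, from 8.99 to 432 per kb of exon. The list of 11 genes had a median level of 218 per kb of exon, against 311 for the catalytic and 205 for the core subunits. These medians were taken with the exon length alone. Per kb of coding sequence Wdr82 was at 2216, above Wdr5 at 1815, so an order between the lists depends on the length. Menin (Men1), which ties MLL1 to chromatin, was at 218 per kb, and Psip1, whose protein LEDGF binds the MLL1-menin pair, was at 289. Hcfc1, a host cell factor found in the MLL1 and SETD1 complexes, was the highest of the list per kb of exon, at 432. Its relative Hcfc2 was at 134. In the SETD1 complexes, Wdr82 was at 328 per kb, Cxxc1 at 306 and Bod1l at 183. Of the subunits that mark the complexes of Kmt2c and Kmt2d, Ncoa6 was at 276 per kb, the H3K27 demethylase gene Kdm6a at 150, Paxip1 at 42.8 and Pagr1a at 8.99. Pagr1b, a gene with a related symbol, has an entry of its own, so the low value of Pagr1a is uncertain where reads could be split between them.

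The removal of H3K4 methylation is the work of 2 enzyme families. The LSD1 family, which acts on H3K4me1 and H3K4me2, was at 206 per kb of exon for Kdm1a and 79.6 for Kdm1b. The KDM5 family removes H3K4me3, and was led by the X-linked Kdm5c at 432 per kb, followed by Kdm5a at 212, Kdm5b at 142 and the Y-linked Kdm5d at 45.3. Kdm5d had a mean signal of 686, whereas the purchased mice of the methods were female, and the labels give no sex for the sequenced mice. The source of the Kdm5d reads was not tested. The median of the 6 demethylase genes was 174 per kb, and their sum was 1117, so the 6 catalytic methyltransferase levels summed to 1.77 times the demethylase levels per kb of exon. That ratio was 1.46 with the longest transcript and 1.10 with the coding sequence.

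Other enzymes with a SET domain ranged from 0.667 to 539 per kb of exon. Kmt2e, a relative of the members with no known methyltransferase activity, was at 539 per kb of exon and Setd7 at 344. Per kb of coding sequence their order was reversed, at 1005 for Kmt2e and 3383 for Setd7. Smyd2 was at 28.2 per kb, Smyd3 at 15.7, and Prdm9, the meiotic H3K4 methyltransferase, at 37.2. Smyd1, a muscle gene, had a mean signal of 3.03 and was the only one of the 44 chromatin and study genes below the minimum of 10. Among 8 readers of H3K4me3 the median was 224 per kb of exon. Ing1 was at 545 per kb, Chd1 at 355, Bptf at 325, Ing4 at 252, Phf8 at 197, Ing5 at 183, Ing2 at 98.3 and Taf3, the TFIID subunit that binds H3K4me3, at 45.7.

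**Figure D4:**
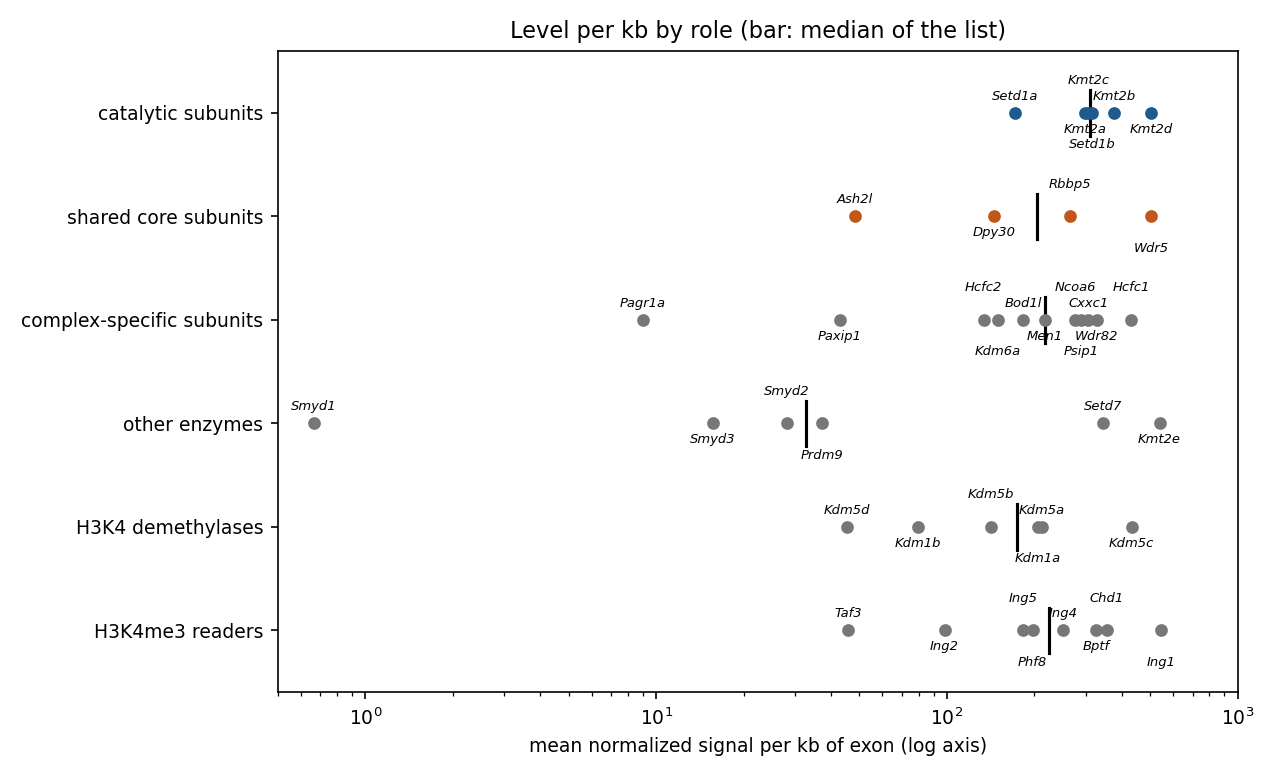
Mean normalized signal per kb of exon (log axis) of each gene, in rows by role, with a bar at the median of each list. The catalytic subunits lie between 172 and 505 per kb, and the core subunits between 48.4 and 506, a range that holds most of the demethylases and readers.

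The factors that the study ties to H3K4me3 stood far apart in level. Cebpe, which encodes C/EBPε of the granulocytic lineage, was at 1952 per kb of exon, above 96.1% of the expressed genes. Gfi1 was at 89.1 per kb, at the percentile 49.0. Kmt2a and Wdr5, the genes of the pair that MM-102 separates, lay between these at 298 and 506 per kb. The difference between genotypes was not analysed here for any of these genes.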

How the data were processed

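RNA-sequencing covered both sorted myeloid subsets and both genotypes (4 groups, each of 2 samples). According to the submitters' processing notes and the methods, the authors used cutadapt 1.14 for trimming, STAR 2.5.2b for alignment to mm10, and quantified genes with RSEM 1.3.0 (GENCODE M12) and ran DESeq2 1.20.0. The authors' deposited mean signal per gene is the average of read counts divided by size factors. The remaining columns hold the authors' fold changes, errors, test statistics and p-values for 1 comparison, and were not used. A count test had been planned and was not run, because the table gives no values per sample.

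Mean signal was divided by the summed exon length of GENCODE M21 (mm10, newer than the authors' annotation), which held 23004 of the 23084 identifiers. Size factors were solved from means that occurred at least 3 times. The solver was tested on simulated counts with 1 library set to a high size factor, close to the highest one in the data. That test covers no other pattern of size factors. Other upper limits for the solver were added after the data were seen. Percentiles used genes with a mean signal of at least 10. Promoter windows came from RefSeq. Protein identity between catalytic subunits was not computed. Genes named are all members and every gene of fixed role and marker lists, which were chosen with earlier results of these data known, and 1 marker is not reported here. For Itgam, which occurs more than once, the entry with the highest mean signal was used, and Gm49388 and Pagr1b were named outside this rule after their values were seen. Python 3.11.15, numpy 2.4.6 and pandas 2.3.3 were used.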

Additional observations from a re-analysis of the deposited data

Results flagged for a closer look

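Of the 8 libraries behind the averages, 1 had a size factor of 1.91, and the next highest was 1.05. The gap between them was 0.775 of the whole range, above the critical value of Dixon's test for 8 samples. These libraries belong to 4 groups and cannot be matched to samples, and chance flags about 1 in 20 groups. Each library has equal weight in the average after division by its size factor.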

How the results depend on the processing

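The values above carry no replicate error, so any change of setting counts as a move. The median level of the 10 members was 302 per kb of exon, 362 with the longest transcript and 501 with the coding sequence. The median percentile was 75.6, against 84.9 with no minimum mean signal and 73.2 among protein-coding genes. The share of Kmt2d among the catalytic subunits was 25.6% per kb of exon and 33.7% without division by length. The median promoter count was 27 CpGs in 300 bases and 25 in the 250 before the start. Per member, levels were 1.18 to 4.80 times as high with the coding sequence. No paired analysis was possible because only 1 average per gene was at hand, and for the same reason the count test, its other normalization, filter and tool, and the fits that leave out a replicate were not run. Identity of the C-terminal regions was not computed because no protein sequences were used. The depth of each library is unknown beyond the range that the methods give. The error of each average is unknown, so small differences in level, such as that between Kmt2c and Kmt2a, are not separated from noise.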
